A study of Mus musculus with 2 samples.

Results

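The T cell receptor alpha-delta locus is the stretch of mouse chromosome 14 that holds the gene segments of the alpha chain (Trav, Traj, Trac) and, nested among them, those of the delta chain (Trdv, Trdd, Trdj, Trdc). Its members here are the 200 genes of chromosome 14 whose symbol begins with one of these names and whose biotype in the GENCODE M21 annotation (GRCm38) is that of a T cell receptor gene. They are 200 of 53843 annotated genes on the autosomes and the X chromosome. The chromosomes were mapped by in situ Hi-C, which ligates DNA ends that lie near each other in the nucleus, in olfactory sensory neurons sorted for the odorant receptor Olfr17 (P2) from adult P2-GFP mice of the 129P2/OlaHsd strain, males and females mixed, untreated and with no other modification listed. The 2 biological replicates, of 23000 and 20000 cells, form the only group, and how many animals each pooled is not stated in the labels. There is no control group and no T cell sample. The data are the authors' list of domain boundaries, positions across which contacts are depleted, made from both replicates combined. Spread between animals therefore cannot be measured, no test over samples exists, and all values below describe 1 map of unknown depth. Expression was not measured, so the identity of the sorted cells was not checked against marker genes.

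A T cell receptor gene is not used as it lies in the genome. In developing T cells the RAG recombinase joins 1 V segment, for the delta chain a D segment, and 1 J segment into an exon that is spliced to a constant gene, and the segments that are brought together can lie far apart on the chromosome. The folding of the locus by cohesin and the zinc finger protein CTCF is known to bear on which V segments reach the J segments. Olfactory neurons do not carry out this recombination, so the locus is expected in its germline order. The letters d and n in Trav symbols mark duplicated copies of V segments, and the number of copies is known to differ between mouse strains. The reference used for coordinates is C57BL/6J, not the strain of the sorted mice.

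The 4 sequence stretches below are the recombination signals of the segments that lie directly to the left and right of the 2 boundaries found inside the locus, shown because they mark where the boundaries fall among the joining sites. Such a signal has a heptamer and a nonamer, whose positions are in capitals here, separated by a spacer of 23 bases after a V segment and of 12 bases before a J segment. All are read 5′ to 3′ on the plus strand of GRCm38.
Trdv3 (chr14:54001268-54001306): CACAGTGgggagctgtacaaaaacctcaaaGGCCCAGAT
Trdv4 (chr14:54075516-54075554): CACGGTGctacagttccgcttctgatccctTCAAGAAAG
Traj27 (chr14:54192275-54192302): GGTTATTGCaatagcacggagCACTGTG
Traj26 (chr14:54194462-54194489): AGTTTTTGCtaagaggaaaccCACTGTG

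The heptamer CACAGTG stood directly after the annotated end of 102 of 134 V members (76.1%), and directly before the start of 15 of 62 J members (24.2%), where it reads as its reverse complement. Of all positions of chromosome 14, 0.0254% begin this heptamer on either strand. The 3 bases CAC, which the recombinase needs most, stood at this position in 127 V members (94.8%) and 50 J members (80.6%), against 1.58% of positions on 1 strand. The heptamer was exact in 93 of 113 V members with a functional biotype and in 9 of 21 V pseudogenes. At the nonamer position, a median of 7 of 9 bases matched ACAAAAACC for both V and J members. Trdv3 is annotated as a pseudogene. With the spacer of 23 bases, 1 base of its nonamer position matched, against 5 for Trdv4 and 7 each for Traj27 and Traj26. In Trdv3 the letters of the consensus nonamer stand in the lower-case stretch, nearer to the heptamer than that spacer allows. These are matches in the reference sequence and not measured cutting.

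The members span 1.80 Mb (chromosome 14, 52427928 to 54224206, GRCm38), from Trav1 to the constant gene Trac. By kind they are 118 V alpha segments, 10 V segments that both chains can use (symbols with dv), 6 Trdv, 2 Trdd, 2 Trdj, Trdc, 60 Traj and Trac. Of the 200, 30 are annotated as pseudogenes, and all but Trdv5 lie on the plus strand. V segments were spread out, with a median of 9.58 kb between the starts of neighbours, and the 60 Traj segments were packed, with a median of 0.945 kb, into 63.8 kb. Another 2 V genes of the locus, C920008G01Rik and B230359F08Rik, carry other symbols and are not members.

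The locus held 2 boundaries. One lay between Trdv3 and Trdv4 and the other among the Traj segments, so that the 200 members fell into 3 intervals. Both boundaries belonged to the authors' class Strong, as did 53.4% of the 7576 boundaries of the map. The boundary score has no stated unit and is compared only within the list. The left one (54030001 to 54035000) scored 0.550 and the right one (54190001 to 54195000) scored 0.553, just above the genome-wide median of 0.545. Strong scores began at 0.5002, so that only 7.10% and 7.54% of Strong boundaries scored lower. The boundary that closed the locus on the left (52350001 to 52355000) scored 1.70, higher than 93.1% of all boundaries, and the one on the right (54520001 to 54525000) scored 0.589, higher than 53.6%. All 4 were Strong, and the left edge had by far the highest score. The density inside the locus was 1.11 boundaries per sequenced Mb, against 2.52 on chromosome 14 and 2.96 over all chromosomes.

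**Figure D1:**
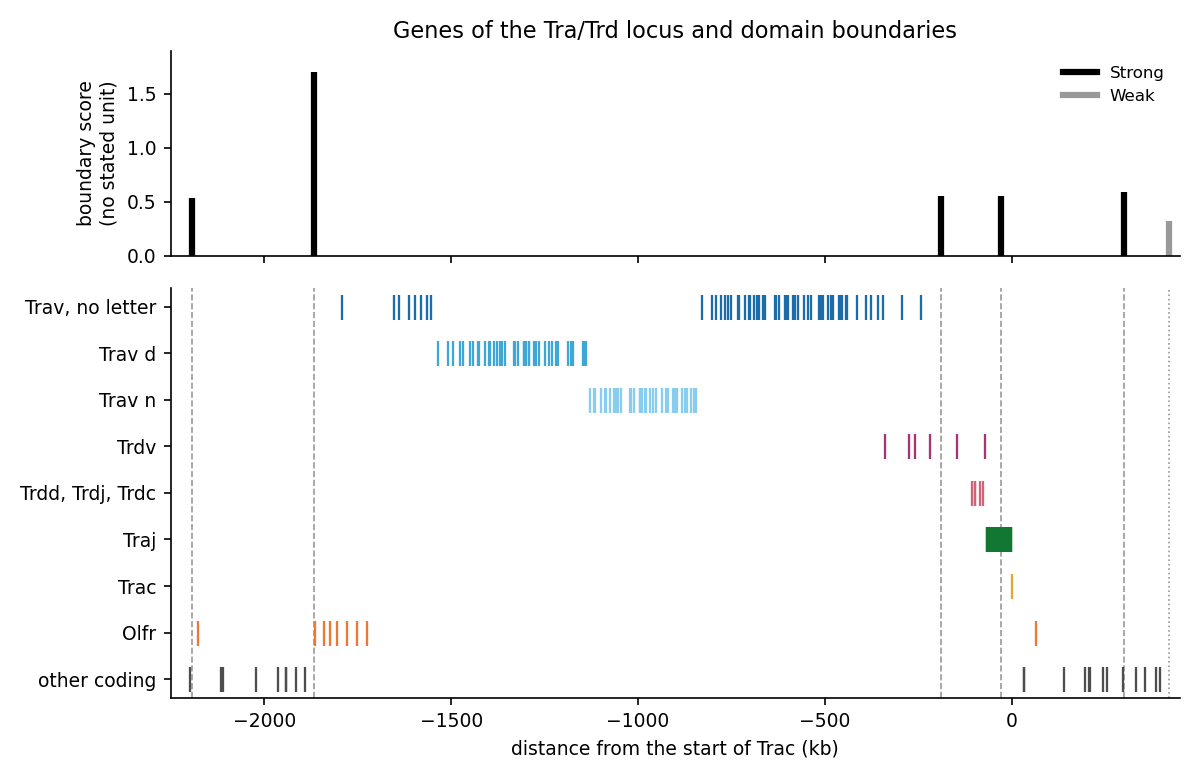
Upper panel, boundary score (no stated unit) of each boundary against its distance from the start of Trac in kb, black for Strong and grey for Weak. Lower panel, the start of each gene by kind (1 tick per gene), with Strong boundaries as dashed and Weak ones as dotted lines: the boundary of score 1.70 stands left of all Trav segments, and the 2 boundaries inside the locus stand right of Trdv3 and among the Traj segments.

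The first interval held 132 members (66.0%), the whole V alpha array. It ran from 52352501 to 54032500, from Trav1 to Trdv3, and contained all 128 Trav segments together with Trdv1, Trdv2-1, Trdv2-2 and Trdv3. Its length in the C57BL/6J reference was 1680 kb, 6.46 times the median of 260 kb. That made it the 40th longest of 7556 intervals and the third longest of 305 on chromosome 14. Intervals of at least 1 Mb made up 2.69% of the map. It held the starts of 163 annotated genes against a median of 5 per interval, the third highest number. The other two with more held up to 226 genes.

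The second interval was the delta core. It was 160 kb long (54032501 to 54192500), shorter than most, with 16.7% of intervals shorter still. Its 42 members (21.0%) were Trdv4, both Trdd segments, both Trdj segments, the constant gene Trdc, the inverted Trdv5 and the 35 Traj segments from Traj61 to Traj27. It held the start of no protein-coding gene. Thus every D, J and constant gene of the delta chain shared an interval with 2 of the 6 Trdv segments and was separated by a boundary from the other 4.

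The third interval joined the 3′ end of the locus to its neighbours. It was 330 kb long (54192501 to 54522500) and held 26 members (13.0%), the 25 Traj segments from Traj26 to Traj1 and Trac. It also held the starts of 10 protein-coding genes. Dad1, which encodes a subunit of the oligosaccharyltransferase, lay 11.3 kb beyond Trac and Abhd4 came next. Farther on were the odorant receptor gene Olfr49, Oxa1l, whose product inserts proteins into the inner mitochondrial membrane, the amino acid transporter gene Slc7a7, Mrpl52 of the mitochondrial ribosome, the matrix metalloproteinase gene Mmp14, Lrp10, Rem2 and the arginine methyltransferase gene Prmt5. The enhancer of the alpha chain is known to lie between Trac and Dad1, and this stretch held no boundary. The start of Prmt5 lay 4.97 kb from the boundary that ended the interval. The starts of Dad1 and Abhd4 lay 61.6 and 61.7 kb from the nearest boundary, the one among the Traj segments.

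**Figure D2:**
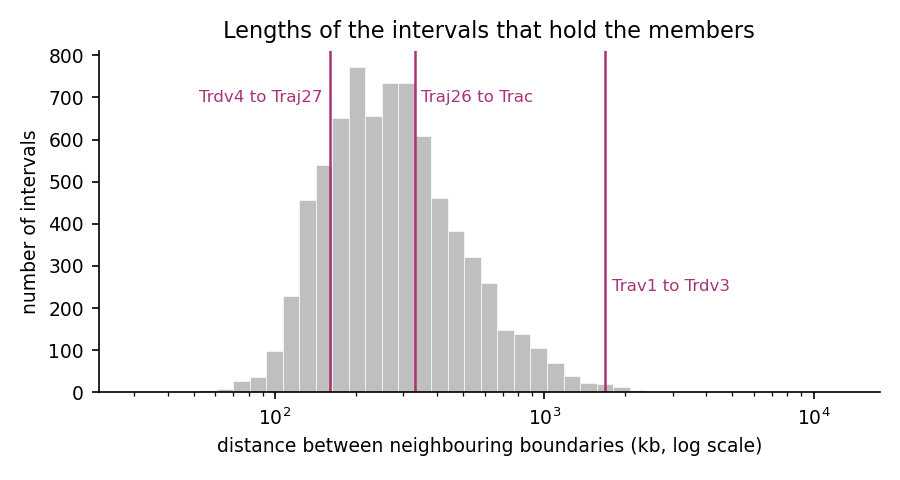
Number of intervals between neighbouring boundaries by length in kb (log axis, all 7556 intervals), with the 3 intervals that hold members as lines. The interval from Trav1 to Trdv3, of 1680 kb, stands far right of the peak, and the other two, of 160 and 330 kb, stand within it.

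The boundary between Trdv3 and Trdv4 fell in sequence without an annotated gene, 31.5 kb right of the start of Trdv3 and 42.4 kb left of that of Trdv4. The V segments before it lay at increasing distances: Trav23 at 55.3 kb, Trdv2-2 at 71.6 kb, Trdv2-1 at 86.4 kb, Trav22 at 106 kb, Trdv1 at 151 kb and Trav21-dv12 at 157 kb. Trav21-dv12 was the nearest to this boundary of the 10 segments shared by both chains, and Trav15d-1-dv6d-1 the farthest, at 1169 kb. Trav15d-1-dv6d-1 and the other 3 shared segments with the letter d lay nearer to the left edge of the interval, at 511 to 726 kb.

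On its right side the delta segments sat near the middle of their interval. Trdd1 was 79.0 kb from the nearest boundary and Trdd2 70.3 kb, so that the D segments were the members of this interval farthest from a boundary. Trdj1 lay at 69.4 kb, Trdj2 at 55.7 kb, Trdc at 49.6 kb and Trdv5 at 43.2 kb, each nearest to the boundary among the Traj segments. From the D segments to the constant gene, each segment in turn lay closer to that boundary.

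The boundary among the Traj segments split the array into 35 segments on the left and 25 on the right. Its bin of 5 kb overlapped Traj29, Traj28, Traj27, Traj26 and Traj25. The starts of Traj27 and Traj28 lay 0.197 and 0.839 kb left of its midpoint, and those of Traj26 and Traj25 lay 1.99 and 2.31 kb right of it. A bin is wider than the spacing of these segments, so that the segment at which the interval changes is not resolved. Traj61, the first segment, lay 37.5 kb from the midpoint, Traj1, the last, 26.3 kb, and Trac 28 kb.

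Distance to a boundary therefore split by kind of segment. Of the 200 members, 47 (23.5%) started within 25 kb of a boundary, against 19.7% of all annotated genes and 23.9% of 21755 protein-coding genes, so that the share over the locus was close to the background. All 47 were Traj segments (47 of 60), and none of the 134 V members was among them. At 10 kb the members were 19 (9.50%), all Traj, against 8.86% of all genes and 11.5% of protein-coding genes. At 50 kb they were 65 (32.5%), against 37.0% and 43.2%. These 65 were all 60 Traj segments, Trac, Trdc, Trdv3, Trdv4 and Trdv5. The members share 1 stretch of chromosome, so that 1 boundary placed all the Traj segments near it at the same time, and the counts are not counts of independent genes.

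The Trav segments were the farthest from any boundary. Their median distance was 537 kb (55.3 to 834 kb), that of all members 353 kb and that of all annotated genes 70.7 kb. Trav1, the first member, lay 75.4 kb from the left edge and Trav2, the next, 215 kb. The 34 segments with the letter n lay deepest, at a median of 771 kb, followed by the 39 with the letter d at 547 kb and the 55 without either letter at 356 kb. The farthest of all was Trav3n-2, a pseudogene. This order follows from where the copies lie in an interval with no boundary inside.

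**Figure D3:**
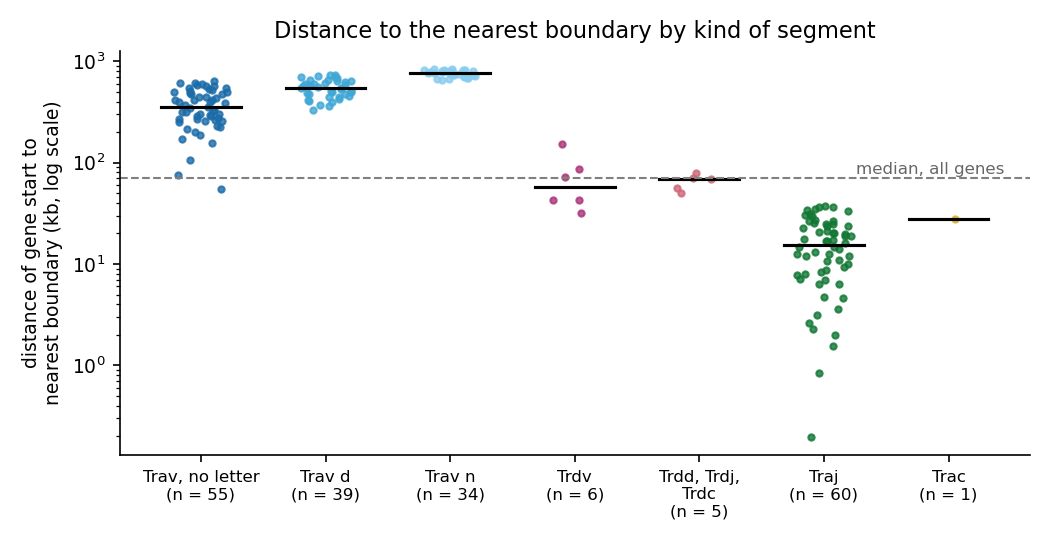
Distance from each gene start to the nearest boundary in kb (log axis) by kind of segment, 1 point per gene, with the median of each kind as a black bar and the median over all annotated genes (70.7 kb) as a dashed line. Trav segments stand above the dashed line except Trav23, and every Traj segment stands below it.

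The V array is built of copies, and this limits what Hi-C reads can show. Alignment of the locus to itself found stretches of at least 20 kb with a second copy over 909 kb (50.6% of the locus), which held the starts of 94 members and no boundary. The last copied base lay 278 kb left of the boundary beside Trdv3. Among 33 pairs of same-named d and n segments, a median of 311 kb apart, 20 were identical over the bases that aligned, which did not always cover both annotations in full. Trav12d-1 and Trav12n-1 were identical over 577 aligned bases, and Trav10d and Trav10n matched at 98.8% of 497 aligned bases. Between unlettered segments and their d copies, a median of 696 kb apart, 4 of 37 pairs were identical and the median identity was 97.7%. Between unlettered segments and n copies 0 of 32 pairs were identical, with a median of 97.3%.

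Simulated reads of 100 bases from the reference mapped uniquely (mapping quality of at least 30) at 59.4% of positions in the locus, against 90.5% over the genome. The first interval had 56.8%, the second 95.0% and the third 94.4%. Inside the first interval, 200 kb from Trav7d-5 to Trav6d-7 had 2.25% and 180 kb from Trav12n-1 to Trav7n-6 had 3.61%, each with 21 members. A boundary there could be missed if reads of low mapping quality were dropped, and neither the authors' read length nor their mapping filter is stated in the labels. The part of low uniqueness in the length of the interval was not tested. Outside those stretches, 480 kb to the left (73.3% unique) and 120 kb between them (60.0% unique) also held no boundary. Nor did 700 kb to the right, from Trav13n-3 to Trdv3 (74.1% unique). Of all intervals, 82.5% are shorter than 480 kb, 4.12% shorter than 120 kb and 93.0% shorter than 700 kb. The stretches were cut by their uniqueness, and each lies below the 90.5% of the genome. Of the 203 intervals of at least 1 Mb, 21 had a lower share of unique reads, and the median over the 203 was 90.6%. Within 50 kb of the 2 boundaries inside the locus, 99.5% of reads were unique at each, and at the left and right edges 93.0% and 90.0%.

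A share of the V segments had matches to the CTCF consensus before their starts. The CTCF consensus is not symmetric, so that each match has an orientation. Matches to its core of 12 bases were searched on both strands, together with a stricter consensus of 14 bases that includes the core. A core match lay in the 500 bases before the annotated start of 40 of 134 V members (29.9%), against 2.09% of all annotated genes and 2.08% of protein-coding genes. In all 40 the match was on the strand of the gene. So it was in 574 of the 1127 annotated genes with a match and 261 of the 453 protein-coding genes with one. As shares of all genes and of all protein-coding genes these are 1.07% and 1.20%, against 29.9% of V members. The matches lay 59 to 415 bases before the start, with a median of 160. None of the 62 J members and none of the 4 D and C members had one. Nor did any of the 418 V genes of the immunoglobulin and other T cell receptor loci. In the 1000 bases before the start, 17 of the 418 had one, against 43 of the 134 V members. Matches after a gene start are not in these counts. Since many V members are copies of each other, the 40 are not independent. Among V members without the letters d and n the share was 29.5%. The matches fell in 9 of 28 V families by symbol, among them 9 of 10 Trav12, 11 of 13 Trav7, 6 of 8 Trav3 and 3 of 3 Trav10 segments, while none of 12 Trav13, 11 Trav9, 9 Trav14 or 9 Trav4 segments had one.

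The next sequences show these matches in triplicated segments and in the single segments Trav17 and Trdv1. Trav6-6 is shown without its copies Trav6d-6 and Trav6n-6, which also have a match. The core is in capitals with 9 bases on either side, read 5′ to 3′ on the plus strand, which is that of the genes. The Trav10 and Trav12 sets carry the same core in all 3 copies.
Trav10 (chr14:53505562-53505591): gagaagtggCCACAAGATGGCagtagtgca
Trav10d (chr14:52810769-52810798): gagaagtggCCACAAGATGGCagtagcgca
Trav10n (chr14:53121886-53121915): gagaagtggCCACAAGATGGCagtagcgca
Trav12-1 (chr14:53538073-53538102): gaagggaaaCCAGCAGAGGGCgctgcccct
Trav12d-1 (chr14:52844364-52844393): gaagggaaaCCAGCAGAGGGCgctgcccct
Trav12n-1 (chr14:53155411-53155440): gaagggaaaCCAGCAGAGGGCgctgcccct
Trav6-6 (chr14:53516789-53516818): agctcctgtCCACCAGGGGGCgcagatgcc
Trav17 (chr14:53806393-53806422): cacctttgaCCACAAGGGGGCactgttgca
Trdv1 (chr14:53881433-53881462): tcagtctagCCAAAAGGTGGCagtgtttta

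The match lay 151 bases before the annotated start of Trav10 and of Trav10d, and 214 before that of Trav10n, whose annotation starts farther on. It lay 87 bases before Trav12d-1 and Trav12n-1 and 104 before Trav12-1. Trdv1 was the 1 Trdv segment of 6 with a match, at 165 bases.

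**Figure D4:**
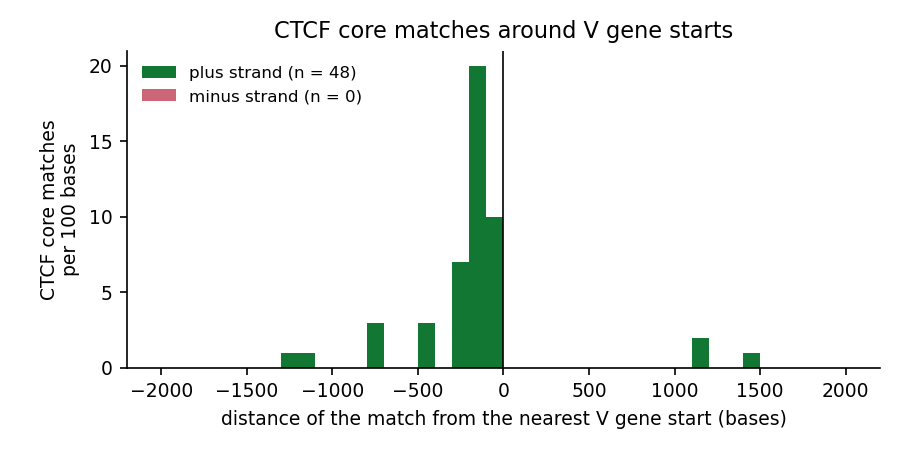
CTCF core matches of the first interval by distance from the nearest V gene start in bases (negative values lie before the start, 100 bases per bar), within 2000 bases of a start. All 48 matches shown are on the plus strand, and 40 stand in the 500 bases before a start.

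Most core matches of the first interval had 1 orientation. Of its 63 core matches, 55 (87.3%) were on the plus strand and 8 on the minus strand, and 40 of the 63 lay in the 500 bases before a V start. Of the other 23, 15 were on the plus and 8 on the minus strand, and 4 of those 8 lay to the left of Trav1. Among the 391 intervals with at least 30 matches, this was the highest share on 1 strand, where the median was 55.9% and the next highest 81.9%. Among the 1202 intervals with at least 20 matches it was also the highest, but the next highest was 86.4%. Many V members are copies of each other, so that the matches before their starts are not independent. This ranking was made after the strands had been seen. With the stricter consensus, 23 matches were on the plus strand and 1 on the minus strand. Over the whole interval the core matches were 37.5 per Mb, near the 34.6 per Mb of the genome. The second interval held 2, or 12.5 per Mb, on opposite strands. The third held 27, 81.8 per Mb, with 12 on the plus and 15 on the minus strand, and 21 of these lay in repeats, against 10 of the 63 in the first.

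**Figure D5:**
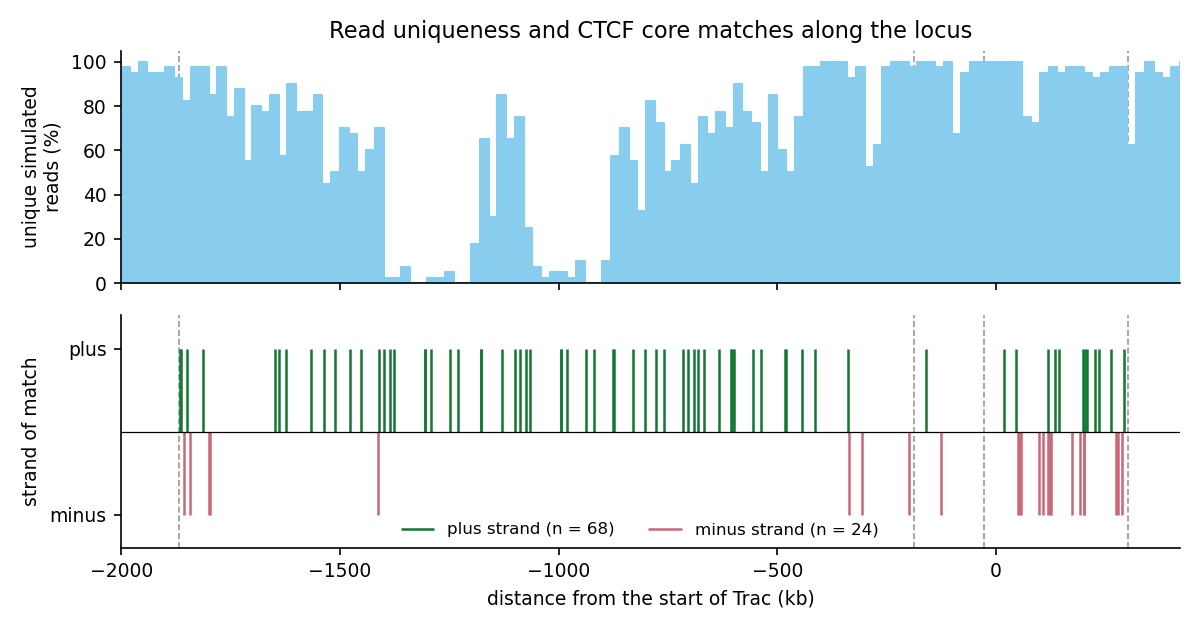
Upper panel, share of simulated reads that mapped uniquely (%, windows of 20 kb) and lower panel, CTCF core matches of the 3 intervals by strand, both against the distance from the start of Trac in kb. Dashed lines mark Strong boundaries. The matches between the left edge and the boundary beside Trdv3 point up (plus strand) in 55 of 63 cases. Unique reads fall to 2.25% over 200 kb in the d copies and to 3.61% over 180 kb in the n copies.

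The 2 boundaries inside the locus had no core match within 10 kb, while 58.0% of all boundaries did and 41.1% of all windows of 20 kb hold one. Each of the 2 edges had 3. Of the 4, only the left edge had a match to the stricter consensus within 10 kb, at 8.72 kb and on the minus strand. Of all windows of 20 kb, 4.79% hold one, and the share of all boundaries with one was not computed. The nearest core match to each boundary is given here with the core in capitals, each read 5′ to 3′ on the strand of the match, to set the edges beside the inner boundaries.
Left edge, plus strand (chr14:52354875-52354904): tcagacgcaCCAGAAGATGGCatcagatct
Between Trdv3 and Trdv4, minus strand (chr14:54021125-54021154): ttctaaataCCATCAGATGGCccaccaagt
Among Traj, plus strand (chr14:54239230-54239259): aaggtgcatCCACTAGATGGCggcagagtg
Right edge, plus strand (chr14:54523785-54523814): ctctacgtaCCAGAAGAGGGCgctggatgt

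These lay 2.39 kb from the midpoint of the left edge, 11.4 kb from the boundary beside Trdv3, 46.7 kb from the one among the Traj segments and 1.30 kb from the right edge. The match assigned to the Traj boundary lies beyond Trac, within Dad1. The absence of these letters near the inner boundaries says nothing of CTCF binding, which was not measured.

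On the left the locus was joined to odorant receptor genes. The left edge lay within Olfr1513, 3.91 kb from its start and 75.4 kb before Trav1. To its right, Olfr1513, Olfr1512, Olfr1511, Olfr1510, Olfr1509, Olfr1508 and Olfr1507 shared the interval of the Trav segments, and the last 3 lay right of Trav1, inside the span of the members. To its left, in an interval of 325 kb, lay the transcription factor gene Sall2, 99.2 kb from Trav1, then Mettl3, which encodes the RNA m6A methyltransferase. Tox4, Rab2b, the chromatin remodeller gene Chd8 and others followed, among them the odorant receptor gene Olfr221, 385 kb from Trav1. That interval held 154 core matches per Mb, 25 on each strand. The sequence of the V interval differed little from the genome in GC content (41.1% against 41.8%) and in sites for DpnII, the enzyme used to cut the chromatin (2.54 against 2.51 GATC per kb), and held more repeats (42.5% against 34.3%).

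Other antigen receptor loci are given for comparison, without a test. The immunoglobulin heavy chain locus (Igh, 217 genes in 2.76 Mb) held 7 boundaries, 2 of them Strong, at 2.54 per sequenced Mb, and its longest interval was 760 kb. The kappa locus (Igk, 166 genes in 3.17 Mb) held 6, 1 of them Strong, at 1.89 per Mb, with a longest interval of 1165 kb. The T cell receptor beta locus (Trb, 53 genes in 0.667 Mb) and gamma locus (Trg, 15 genes in 0.175 Mb) held 1 Weak boundary each, and the lambda locus (Igl, 12 genes) none. The alpha-delta locus thus had the longest interval of the 6 and the lowest share of unique reads, 59.4% against 78.1 to 84.8%. The largest share of genes in 1 interval was 66.0% here, 32.3% in Igh, 40.4% in Igk, 56.6% in Trb, 73.3% in Trg and 100% in Igl.

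Other genes that act with the locus in T cells lie elsewhere in the genome. A list of 30 holds genes for the recombination machinery, for the T cell receptor complex, coreceptors and signalling, and for transcription factors of developing T cells. Of these, 9 started within 25 kb of a boundary, against 23.9% of protein-coding genes, with a median of 54.4 kb, while that of protein-coding genes was 59.2 kb. Within 10 kb lay 4 of the 30, against 11.5% of protein-coding genes. They were Xrcc5 (0.0790 kb), which encodes a subunit of the Ku end-joining complex, and the kinase gene Zap70 (0.702 kb). The others were Hmgb1 (1.99 kb), whose product assists RAG, and the transcription factor gene Bcl11b (8.90 kb). The farthest were Nhej1 (197 kb), which encodes an end-joining factor, the transcription factor gene Lef1 (162 kb) and the adaptor gene Lcp2 (134 kb). Rag1 and Rag2 lay 43.0 and 67.8 kb from the same Strong boundary (score 0.758).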

How the data were processed

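The authors deposited 1 list of domain boundaries with a boundary score and a class (Strong or Weak) per bin of 5 kb. Per the labels, the replicates were merged into 1 contact matrix before boundaries were called, and the submitters' processing notes name GRCm38. No caller, window, aligner, read filter or number of contacts is named in either. Scores were used as deposited. Each boundary was placed at its bin's midpoint, and an interval is the stretch between neighbouring midpoints. Genes were placed by their annotated 5′ ends (GENCODE release M21, GRCm38). Distances, counts and motif searches used Python 3.11.15 and pandas 2.3.3. Uniqueness used reads of 100 bases taken every 500 bases and minimap2 2.31, which also aligned the locus to itself. Functions were tested on simulated data. Members and lists were chosen with earlier results of these data known. Named genes are the edge members of each kind, those beside boundaries, all delta segments, the neighbouring coding genes and the extremes of the gene list. No test was made, since both replicates are in 1 list.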

Additional observations from a re-analysis of the deposited data

How the results depend on the processing

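Of 29 alternative values, 23 stayed close to the main value. For a share, close means within the 95% binomial interval of the main value, and for any other quantity within 1.5 times it. Genes and reads of 1 locus are not independent draws, so that this interval only sorts the values and measures no spread. The 2 boundaries inside the locus, the 3 intervals, the interval of 1680 kb and the share of 66.0% in it were the same with Strong boundaries alone. This outcome was fixed in advance, since all 4 boundaries that set these intervals are Strong. The same holds for the density, the share within 25 kb and the median distance with Strong boundaries alone. It holds for the cut at the median score, which both inner boundaries exceed. The span without pseudogenes was fixed too, since neither Trav1 nor Trac is a pseudogene. So was the strand ranking at 50 or more matches, a subset of intervals in which this one already ranked first. Such alternatives are counted among the 23 and say nothing of robustness. The share of members near a boundary was 9.50% at 10 kb and 32.5% at 50 kb. With the stricter CTCF consensus, 1 of the 4 boundaries had a match, and 13.4% of V members had one before their start (0.331% of all genes). Unique reads in the locus were 62.7% at a mapping quality of at least 10. With reads of 50 bases they were 9.85% in the locus and 14.6% in the flanking sequence, and the cause was not tested. The alternatives for matches before V starts and for the strand ranking were added after the data had been seen. No paired analysis was possible because the samples form 1 group and the list combines them. For the same reason no replicate could be left out.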

Other observations

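The locus also holds 5 antisense genes, all on the minus strand, and none crossed a boundary. Gm43647 spans Trav22, Trdv2-1 and the start of Trdv2-2 and begins 71.0 kb from the boundary beside Trdv3. Gm30275 spans Trdv4, both Trdd segments and Trdj1 on the other side of it and begins 67.1 kb from the boundary among the Traj segments. Gm43434 spans Trdj2 and the start of Trdc and begins 46.2 kb from that boundary. Gm30214 spans Trav13d-3 in the d copies and Gm43650 spans Trav13n-3 in the n copies, and they begin 687 and 689 kb from the nearest boundary, on opposite sides of the middle of the V interval. In the 1000 bases before the start, a CTCF core match was found for 13 of 183 Igh V genes and 3 of 160 Igk V genes, against 43 of 134 V members of the alpha-delta locus and 4.45% of all annotated genes.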
